A study of Mus musculus with 9 samples.

Results

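The hairpin DHX9-837 was compared with the control hairpin across the genes of the mouse large intestine. The comparison used 6 of the 9 arrays of the series, 3 titled for DHX9-837 and 3 titled for the control hairpin. The 3 arrays of a different Dhx9 hairpin, DHX9-1271, entered the same model, which supplied the estimate of spread and a direct test between the hairpins. Of 24011 gene symbols on the array, 16808 passed a filter on the mean log2 level (5.28, the 30th percentile of genes) and were tested.

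All mice were on a C57BL/6 background and carried a short hairpin RNA together with rtTA, the activator that switches such hairpins on in the presence of doxycycline. Controls were FLuc.1309/rtTA mice, whose hairpin is directed at firefly luciferase, an insect gene that mice lack. The knockdown mice were DHX9.837/rtTA and DHX9.1271/rtTA. From the age of 4 weeks every group drank water with doxycycline (1 mg/ml) and sucrose (5%) for 14 days, so the drug, the sugar and rtTA were shared by controls and knockdown mice. Total RNA of the large intestine was hybridised to Affymetrix Mouse Gene 2.0 ST arrays. The sources used here do not name the promoter of rtTA and do not say whether the replicates of a group are separate animals. P-values therefore measure the spread between these samples, which may be technical. In bulk RNA, fewer cells of a type and less RNA per cell cannot be told apart.

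DHX9 is a helicase of the DExH-box family that unwinds RNA, DNA and RNA-DNA hybrids and acts in transcription, splicing, translation and the handling of double-stranded RNA. The lining of the large intestine is renewed from dividing cells at the base of crypts, and the surface colonocytes absorb water, salts and some calcium.

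The array medians lay between 6.25 and 6.28 on the log2 scale. Across genes, pairs of DHX9-837 arrays correlated at 0.981 to 0.990, pairs of control arrays at 0.979 to 0.990 and pairs across these groups at 0.959 to 0.980. Markers of colonic surface epithelium were high in every array: the carbonic anhydrase gene Car1 lay between 13.03 and 13.15. Markers of small intestine differed widely between arrays of the same group. Over the 17 tested small intestine genes the mean level was 7.01, 8.41 and 7.84 in the controls and 8.28, 7.07 and 9.06 in DHX9-837. The ileal bile acid binding protein gene Fabp6 was at 5.22, 9.05 and 7.69 in the controls and at 9.01, 5.05 and 10.45 in DHX9-837. The groups overlapped for these markers. When the mean of this list was added to the model as a covariate, an alternative chosen after seeing the data, 1271 genes were higher and 1045 lower in DHX9-837 than in controls.

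Dhx9 itself was at log2 levels of 8.19, 8.22 and 8.2 in the DHX9-837 arrays and 9.21, 9.18 and 9.32 in the control arrays. The groups did not overlap, and the DHX9-837 mean was 48.8% of the control mean (log2 fold -1.03, SE 0.051, adjusted p = 2.05e-05). An adjusted p here comes from limma with Benjamini-Hochberg adjustment over the 16808 genes, and calls needed an adjusted p below 0.05 whatever the fold. An exact two-sided permutation test of Dhx9 gave p = 0.1, the smallest that 3 arrays against 3 can give. The hairpin DHX9-1271 left Dhx9 at 8.27, 8.22 and 8.18, and the hairpins differed by -0.02 (95% interval -0.14 to 0.094, adjusted p = 0.908). Of 18 DExH-box helicase genes tested, Dhx9 and the RNA sensor gene Dhx58 fell, Dhx15, which encodes a splicing helicase, rose (log2 fold 0.24), and 15 were not called. Without control replicate 1, 2 of these genes rose, and 1 fell without control replicate 1 or 3 or DHX9-837 replicate 1 or 2.

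Across all genes tested, 1457 rose (8.67%) and 1161 fell (6.91%), which is 15.6% called in either direction. Without DHX9-837 replicate 3, 942 rose and 916 fell. Centring the arrays on their medians gave 1265 rises and 1480 falls, so which direction held more genes depended on the scaling. Most calls were small: the median size was 0.34 for rises and 0.34 for falls on the log2 scale. At least a 2-fold change was found for 67 rises and 42 falls, of which 31 and 40 were outside the genes counted as antigen receptor genes. Those antigen receptor genes, whose segments are near-identical copies and therefore uncertain, supplied 64 of the rises (41 without control replicate 1) and 4 of the falls out of 242 tested. The immunoglobulin heavy chain genes Ighg2b (log2 fold 1.91) and Ighg2c (1.84) were left out of the antigen receptor counts. Both are among the 31. The median log2 fold of all genes tested was -0.0012, and list medians below are read beside it. The lists and their members were chosen with earlier results of these data known. The share of a list that was called may be partly set by that choice.

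**Figure D1:**
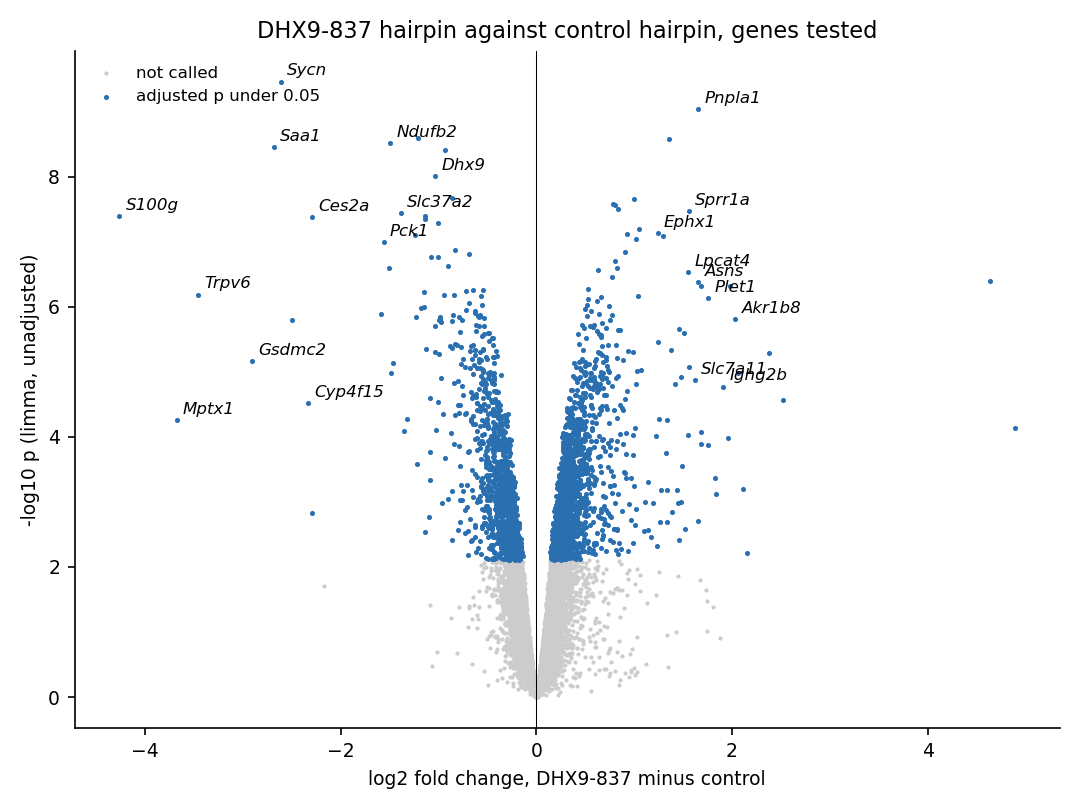
Each point is 1 of the 16808 genes tested, with the log2 fold change of DHX9-837 against control on the x axis and -log10 of the unadjusted limma p on the y axis; blue points had an adjusted p under 0.05. S100g lies farthest to the left at -4.26, and the unlabelled points beyond 2 on the right are antigen receptor segments and other genes not named here.

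S100g and Trpv6, genes of calcium absorption, had the largest and the third largest falls among the named genes. S100g, which encodes the intracellular calcium carrier calbindin-D9k, was at 11.35, 11.34 and 11.41 in the controls and 6.96, 6.73 and 7.64 in DHX9-837. That is a 19.2-fold lower level (log2 fold -4.26, SE 0.25, adjusted p = 3.89e-05). Trpv6, the apical calcium entry channel, was at 10.42, 9.22 and 10.16 in the controls and 6.40, 6.77 and 6.26 in DHX9-837, or 11-fold lower (log2 fold -3.46, SE 0.28, adjusted p = 0.000219). For both genes the highest DHX9-837 array lay more than 1.5 log2 units under the lowest control array. The sodium-calcium exchanger gene Slc8a1 (log2 fold -0.69, adjusted p = 8.77e-05) and the cytochrome P450 gene Cyp3a13 (-0.85, adjusted p = 0.000303) fell too. Of the 12 calcium and vitamin D genes tested (16 listed), 4 fell, 0 rose and 8 were not called, with a median of -0.24 (1 rose without DHX9-837 replicate 2). The vitamin D receptor gene Vdr had a log2 fold of -0.09 (adjusted p = 0.212) and the basolateral calcium pump gene Atp2b1 one of -0.06 (adjusted p = 0.453).

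The gasdermin C genes, which encode pore-forming proteins of the gut epithelium, were the next largest family. Gsdmc2 was at 9.96, 11.35 and 10.63 in the controls and 7.79, 7.81 and 7.63 in DHX9-837 (log2 fold -2.90, SE 0.31, adjusted p = 0.000676). Gsdmc3 had a log2 fold of -2.49 (adjusted p = 0.000314) and Gsdmc4 one of -1.22 (adjusted p = 0.00578). These genes are close copies of each other, so how the signal divides between them is uncertain. Gsdmd, the gasdermin cut by inflammatory caspases, fell by 0.47 on the log2 scale (adjusted p = 0.0031). Of the 6 tested genes of the gasdermin list 4 fell, and the median of the 6 was -0.84. Over all 9 tested genes with a Gsdm name 4 fell and 0 rose, with a median of -0.465.

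Acute-phase and antimicrobial genes of the epithelium followed. Saa1, which encodes a serum amyloid A protein, was at 10.05, 10.44 and 10.24 in the controls and 7.69, 7.40 and 7.60 in DHX9-837, a 6.41-fold lower level (log2 fold -2.68, SE 0.12, adjusted p = 9.45e-06). Saa3 fell by 1.18 (adjusted p = 0.000278). Mptx1, a mucosal pentraxin gene, fell by 3.68 (SE 0.51, adjusted p = 0.00223), but its DHX9-837 mean lay under the level filter and its controls ranged from 7.65 to 9.83, so the size of that fold is uncertain. The cytokine gene Il18 (-0.91), the IgA transporter gene Pigr (-0.29) and the epithelial sensor gene Nlrp6 (-0.37) fell as well. Of 18 tested members 6 fell and 1, the oxidase maturation gene Duoxa2 (0.44, named as the single rise), rose. The single rise was not called without control replicate 1 or 3 or any one DHX9-837 replicate, and 2 were called without control replicate 2. The list median of 0.15 has the opposite sign to most calls; the Paneth and goblet cell genes Lyz1 (1.12, adjusted p = 0.527) and Itln1 (0.90, adjusted p = 0.629) were positive and not called. That median was -0.315 with array weights, -0.571 without control replicate 1, -0.309 without DHX9-837 replicate 3 and -0.33 with the small intestine covariate.

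Carboxylesterase genes and several cytochrome P450 genes fell. Ces2a, a carboxylesterase gene of the gut, was at 9.01, 9.55 and 9.44 in the controls and 6.89, 7.2 and 7.01 in DHX9-837 (log2 fold -2.30, SE 0.13, adjusted p = 3.89e-05). Ces2e (-1.0), Ces1d (-1.0) and Ces2b (-1.09) also fell, and the carboxylesterase list had 7 of 12 tested members down, 0 up and a median of -0.50. Of the 19 tested genes of the cytochrome P450 list (29 listed) 7 fell and 2 rose, with a median of -0.16. In that list 1 rose without control replicate 1 or 3 or DHX9-837 replicate 1 or 3. Cyp2d26 fell by 0.93 (SE 0.041, adjusted p = 9.45e-06). Cyp4f15 fell by 2.33 (adjusted p = 0.00155), with its DHX9-837 mean under the level filter. Pck1, which encodes the gluconeogenic enzyme PEPCK, was at 9.30, 9.53 and 9.28 in the controls and 7.76, 7.67 and 8.0 in DHX9-837 (log2 fold -1.56, adjusted p = 6.29e-05). The complex I subunit gene Ndufb2 fell by 1.5 (SE 0.064, adjusted p = 9.45e-06). It was the only called fall among 33 respiratory chain genes, of which 11 rose (7 without DHX9-837 replicate 2 and 7 without replicate 3). Sycn, which encodes a zymogen granule protein, fell by 2.61 (adjusted p = 5.82e-06), while 0 of 7 tested pancreas genes were called.

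More genes of the surface colonocyte list fell than rose, though some rises were large. Slc37a2, a sugar-phosphate exchanger gene, was at 12.24, 12.06 and 12.20 in the controls and 10.71, 10.69 and 10.96 in DHX9-837 (log2 fold -1.38, SE 0.079, adjusted p = 3.89e-05). The chloride-bicarbonate exchanger gene Slc26a3 fell by 0.63, the sodium-proton exchanger gene Slc9a2 by 0.61 and the phosphate transporter gene Slc20a1 by 0.81. In the opposite direction, Guca2b, which encodes the hormone uroguanylin, was at 9.51, 10.12 and 9.85 in the controls and 10.96, 10.76 and 11.43 in DHX9-837 (log2 fold 1.22, SE 0.18, adjusted p = 0.00312). In total 9 of 24 colonocyte genes fell and 2 rose, with a median of -0.17; the rises numbered 1 without control replicate 1 or 3 or DHX9-837 replicate 2. Of 19 pan-epithelial markers 4 rose, 2 fell and 13 were not called. The falls were Cldn3 (-0.34, adjusted p = 0.0313), which encodes a claudin, and Spint2 (-0.32), which encodes a protease inhibitor, and the keratin gene Krt18 rose by 0.82 (adjusted p = 0.000118). Falls numbered 1 without any one control replicate or DHX9-837 replicate 1 or 3, and rises 2 without DHX9-837 replicate 2 or 3. The mean of the 19 per array was 10.99 to 11.02 in the controls and 11.04 to 11.12 in DHX9-837.

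Genes of salt and water transport and of cell junctions were split. The water channel gene Aqp4 was at 6.72, 6.24 and 6.52 in the controls and 7.93, 8.19 and 7.89 in DHX9-837 (log2 fold 1.51, SE 0.14, adjusted p = 0.000389), whereas the water channel gene Aqp8 fell by 0.60 (adjusted p = 0.0122). Of 29 transport genes 4 rose and 7 fell. The count of falls was 4 or fewer in every fit that left out 1 array (1 without control replicate 1 or DHX9-837 replicate 1, 2 without control replicate 3, and 3 or 4 without each of the 6 other arrays). Cldn8, a claudin gene of the distal colon, was at 6.02, 6.03 and 6.41 in the controls and 7.67, 7.81 and 8.03 in DHX9-837, or 3.21-fold higher (adjusted p = 0.00019). F11r, which encodes the junctional adhesion molecule JAM-A, fell by 0.58 (adjusted p = 0.000576). Of 16 junction genes 1 rose (2 without control replicate 2 or DHX9-837 replicate 2) and 5 fell (3 without control replicate 1 or DHX9-837 replicate 1).

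**Figure D2:**
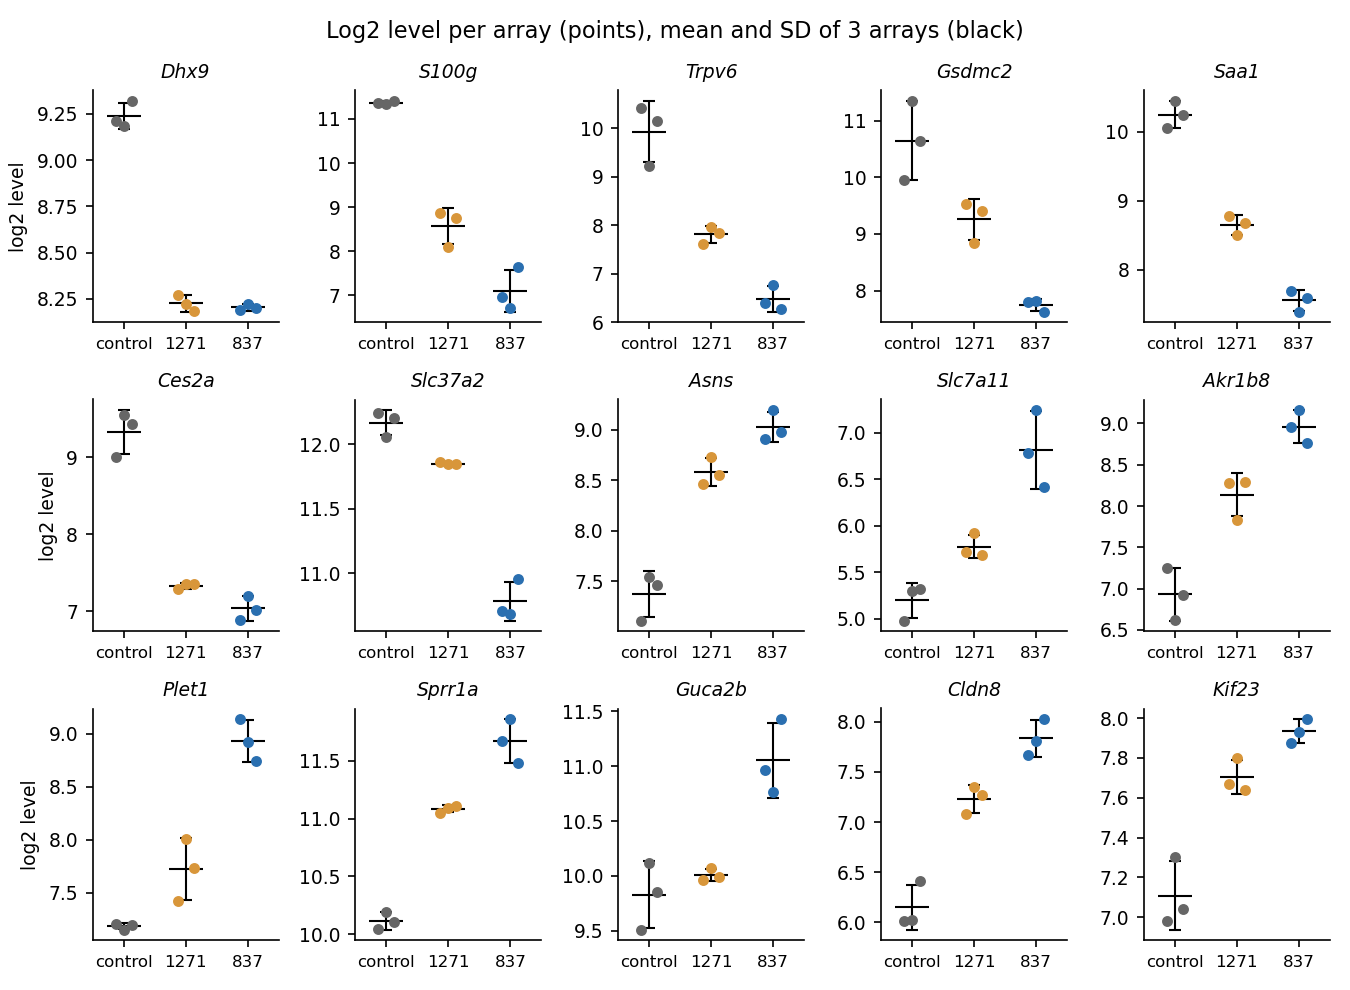
Log2 level of 15 genes in each of the 9 arrays (points), with the mean and SD of 3 arrays in black; each panel has its own y axis, which does not start at 0. In the panels from S100g to Kif23 no DHX9-837 array overlaps a control array, and the DHX9-1271 arrays lie between the control and DHX9-837 arrays in each of them except Guca2b, where they overlap the controls.

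The largest rise among named genes was Akr1b8, an aldo-keto reductase gene that clears reactive aldehydes. It was at 7.25, 6.62 and 6.92 in the controls and 8.96, 9.16 and 8.77 in DHX9-837, or 4.09-fold higher (log2 fold 2.03, SE 0.18, adjusted p = 0.000314). Of 10 tested aldo-keto reductase genes 2 rose and 1 fell (3 fell without control replicate 2): Akr1c18, which inactivates progesterone, rose by 0.66 and Akr1c14 fell by 0.48. Other enzyme genes were also among the largest rises. Pnpla1, of the patatin-like lipase family, was at 5.93, 5.93 and 5.95 in the controls and 7.53, 7.71 and 7.52 in DHX9-837 (log2 fold 1.65, SE 0.062, adjusted p = 7.73e-06). The lysophospholipid acyltransferase gene Lpcat4 had a log2 fold of 1.55 (adjusted p = 0.000131), and Ephx1, which encodes an epoxide hydrolase, one of 1.24 (adjusted p = 5.49e-05).

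Some genes that mark epithelium under repair rose. Plet1 was at 7.21, 7.15 and 7.19 in the controls and 9.14, 8.92 and 8.75 in DHX9-837 (log2 fold 1.75, SE 0.14, adjusted p = 0.000229). Sprr1a, a small proline-rich cornified envelope gene, rose by 1.56 (SE 0.088, adjusted p = 3.89e-05). Ereg, which encodes the EGF receptor ligand epiregulin, rose by 1.38, the annexin genes Anxa1 by 1.34 and Anxa3 by 0.79, and the keratin gene Krt7 by 0.56. Ccn2 (-1.03) and Ccn1 (-0.70), matricellular genes that are classical YAP targets and were named after their values were seen, fell. For Ccn1 the groups overlapped, and the call was lost without any one array other than control replicate 2. Of 22 genes in the repair and YAP list 7 rose and 2 fell, with a median of 0.07; 1 fell without control replicate 3 or any one array of either Dhx9 hairpin.

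Enzymes that make asparagine, serine and one-carbon units rose, together with amino acid transporters and tRNA synthetases. These genes are textbook targets of ATF4, the transcription factor that cells make when amino acids are short or translation initiation is slowed. ATF4 binds a composite element whose letters are TGATGNAA. It was searched on both strands of RefSeq promoter windows (GRCm38.p6) that run from 250 bases before to 50 bases after each gene start. The element lies in 3.97% of all 32851 windows and in at least 1 window of 4.51% of the 27025 genes in the table. Among the serine and ATF4 list members that rose, 10 of 23 with a window hold it (43.5%), as do 5 of 18 that did not rise (27.8%). Known ATF4 targets were listed, so a share above that of all genes is partly set by that choice. The difference between risen and other members was not tested. Sequences of 4 risen genes are given 5′ to 3′ along the gene, with the element in capitals, to show its place. A match is a description of the letters and not of binding.
Asns, chr6:7693210-7693272, minus strand, 23 bases before the start: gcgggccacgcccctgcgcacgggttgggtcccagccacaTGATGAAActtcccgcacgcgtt
Slc7a11, chr3:50443614-50443719, minus strand, on both strands at 66 and 47 bases before the start: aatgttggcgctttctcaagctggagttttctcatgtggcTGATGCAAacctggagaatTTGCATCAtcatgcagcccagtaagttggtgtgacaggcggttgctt
Slc1a4, chr11:20332710-20332757, minus strand, on the opposite strand across the start, with its first letter 4 bases before it: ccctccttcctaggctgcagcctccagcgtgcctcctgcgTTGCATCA
Got1, chr19:43524660-43524747, minus strand, 102 bases before the start on the opposite strand: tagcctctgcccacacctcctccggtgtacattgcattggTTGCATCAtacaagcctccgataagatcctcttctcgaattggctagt

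Asns, the asparagine synthetase gene, was at 7.11, 7.54 and 7.46 in the controls and 8.91, 9.20 and 8.98 in DHX9-837, or 3.15-fold higher (log2 fold 1.65, SE 0.13, adjusted p = 0.000172). The mitochondrial folate enzyme gene Mthfd2 rose by 1.24 (adjusted p = 0.000481) and the serine-glycine converting enzyme gene Shmt2 by 1.00 (SE 0.054, adjusted p = 3.72e-05). Psat1, of serine synthesis, rose by 0.94 and the aspartate transaminase gene Got1 by 0.93. Of the 14 tested genes of serine, one-carbon and asparagine synthesis 7 rose and 0 fell, with a median of 0.36.

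Slc7a11, which imports cystine, was at 4.98, 5.30 and 5.32 in the controls and 6.78, 7.25 and 6.42 in DHX9-837. Its log2 fold was 1.62 (SE 0.19, adjusted p = 0.000929), although the control mean lay under the level filter. The neutral amino acid transporter genes Slc1a4 (1.29, SE 0.081, adjusted p = 5.5e-05) and Slc7a5 (1.02, adjusted p = 5.99e-05), its partner subunit gene Slc3a2 (0.53) and the cationic amino acid transporter gene Slc7a1 (0.59) rose. In the ATF4 list of 34 genes, 7 of 8 transporters and 8 of 12 tRNA synthetases rose, for example Tars (0.36). The tRNA synthetase rises numbered 5 without DHX9-837 replicate 2. Of the 14 factors and stress genes in it 5 rose (3 without control replicate 3) and 1 fell. The list as a whole had 20 up and 1 down and a median of 0.23; 0 fell without control replicate 1 or 3, DHX9-837 replicate 1 or DHX9-1271 replicate 3, and 2 without control replicate 2. The Atf4 transcript had a log2 fold of 0.23 (adjusted p = 0.0132) and Ddit3, the CHOP gene of the terminal stress response, one of 0.04 (adjusted p = 0.824). Among 22 endoplasmic reticulum chaperone and unfolded protein genes Hspa5 rose (0.17, adjusted p = 0.028), 0 fell, and the median was 0.07. Hspa5 lost that call or was joined by 1 more gene when single arrays were left out: 0 rose without control replicate 1 or 3 or DHX9-837 replicate 2 or 3, and 2 without DHX9-1271 replicate 2.

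**Figure D3:**
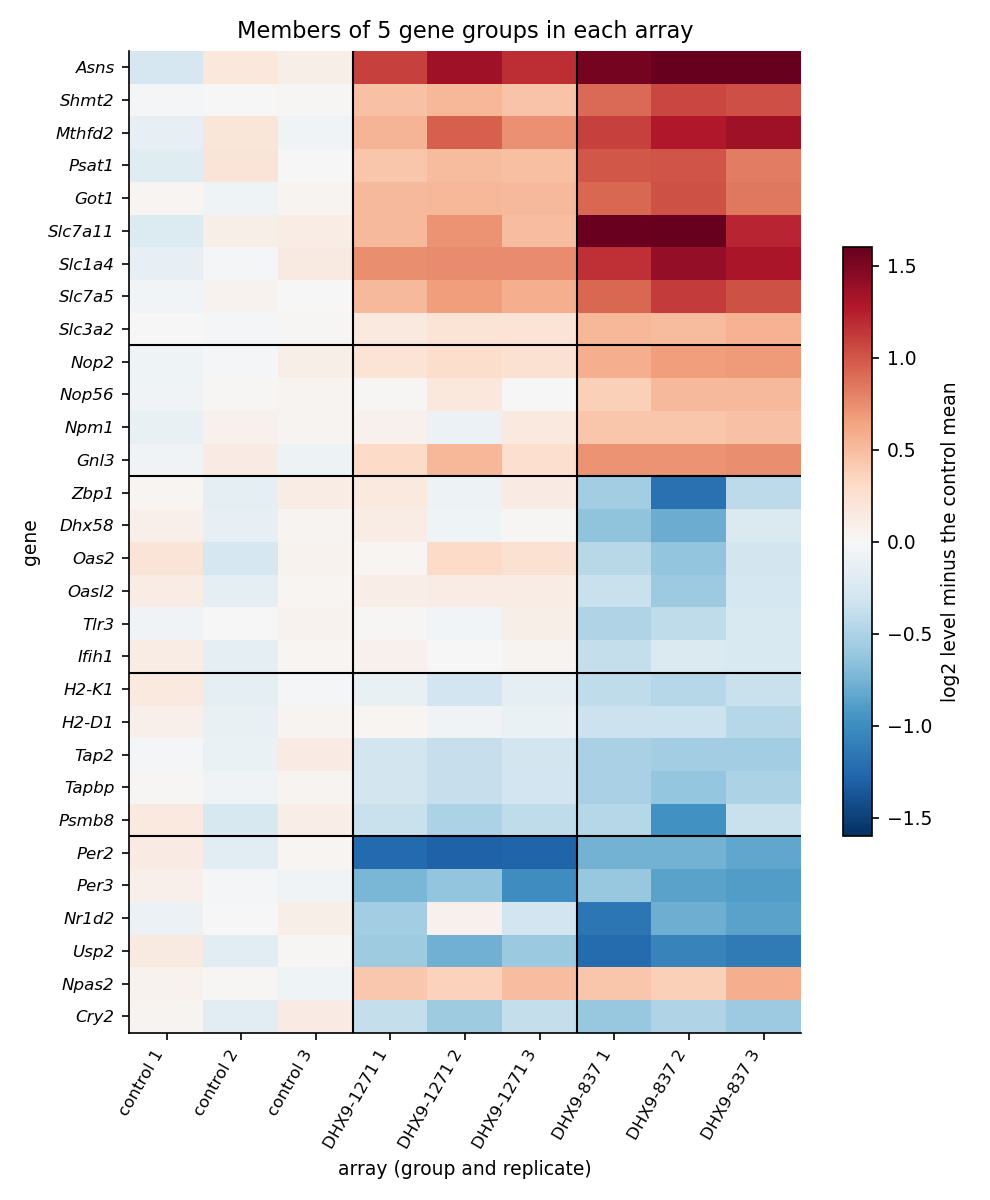
Log2 level minus the mean of the 3 control arrays for 30 genes (rows) in each array (columns); the colour scale ends at 1.6 in each direction. The 9 amino acid supply genes are higher in each DHX9-837 array than in each DHX9-1271 array, and the 6 RNA sensor genes are lower in each DHX9-837 array than in each control and DHX9-1271 array.

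Many nucleolar genes that assemble ribosomes rose. Nop2, an rRNA methyltransferase gene, was at 7.84, 7.89 and 8.0 in the controls and 8.49, 8.59 and 8.59 in DHX9-837 (log2 fold 0.64, SE 0.056, adjusted p = 0.000303). The nucleostemin gene Gnl3 (0.73), the nucleolin gene Ncl (0.47), Mybbp1a (0.55) and the snoRNP core genes Nop56 (0.47) and Nop58 (0.45) rose. In this list 16 of 28 rose, 0 fell and the median was 0.22. Of 21 ribosomal protein genes tested 2 rose and 2 fell, with a median of 0.05. Leaving out any 1 array gave 0 or 1 fall, and 1 rise except without DHX9-1271 replicate 2, where 2 rose. Myc, whose product drives many nucleolar genes, had a log2 fold of 0.72 (adjusted p = 0.00175).

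Mitotic genes rose in DHX9-837. Kif23, a kinesin gene of cell division, was at 6.98, 7.30 and 7.04 in the controls and 7.88, 7.93 and 8.0 in DHX9-837 (log2 fold 0.83, SE 0.087, adjusted p = 0.000653). The cytokinesis factor gene Ect2 rose by 0.71, Anln by 0.68, the proliferation marker Mki67 by 0.61, Kif20b by 0.53 and the spindle gene Tpx2 by 0.51. Of 33 tested genes of the second gap phase and mitosis 25 rose and 0 fell, with a median of 0.41. The range was 17 to 27 rises when 1 array was left out. Of 32 replication genes 8 rose and 0 fell, with a median of 0.14; the difference between these lists was not tested. Topoisomerase gene Top2a had a log2 fold of 0.07 (adjusted p = 0.62). The mean of the mitotic list lay at 7.15 to 7.50 in the controls, at 7.74 to 7.84 for DHX9-837 and at 7.75 to 7.78 for DHX9-1271, so the knockdown arrays all lay above the controls and their ranges overlapped each other.

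Promoters of mitotic genes are known for pairing CCAAT boxes with the cell cycle homology region, whose core is TTTGAA. Searched on both strands, both letter strings occur together in 6.95% of all windows and in 7.97% of genes. They occur in 15 of 20 mitotic list members that rose and have a window (75.0%) and in 4 of 7 that did not rise (57.1%). Since mitotic genes are known for these strings, a share above that of all genes is partly set by the list. Risen and other members were not tested against each other. The stretch from 110 bases upstream to the gene start is shown for 3 risen genes, chosen after their values were seen because both strings lie upstream of the start; capitals mark the strings on either strand.
Ube2c, chr2:164769819-164769928, plus strand: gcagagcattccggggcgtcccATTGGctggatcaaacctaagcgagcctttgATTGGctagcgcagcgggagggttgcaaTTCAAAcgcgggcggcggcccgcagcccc
Cdc20, chr4:118437344-118437453, minus strand: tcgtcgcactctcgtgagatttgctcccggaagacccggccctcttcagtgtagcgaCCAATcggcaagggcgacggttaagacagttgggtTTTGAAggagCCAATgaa
Cdk1, chr10:69352913-69353022, minus strand: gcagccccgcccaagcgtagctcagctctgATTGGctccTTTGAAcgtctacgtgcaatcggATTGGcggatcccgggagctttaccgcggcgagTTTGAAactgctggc
Ube2c, which encodes the ubiquitin-conjugating enzyme of the anaphase-promoting complex, had a log2 fold of 0.75 (adjusted p = 0.00463), its activator gene Cdc20 one of 0.34 (adjusted p = 0.0155) and the mitotic kinase gene Cdk1 one of 0.41 (adjusted p = 0.0365). The Cdc20 call was lost without control replicate 3 or DHX9-837 replicate 3, and the Cdk1 call without any one array other than control replicate 2 or DHX9-1271 replicate 2.

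Sensors of double-stranded RNA and viral nucleic acid were lower in DHX9-837. Zbp1, a sensor of left-handed nucleic acid, was at 8.93, 8.77 and 9.02 in the controls and 8.35, 7.71 and 8.48 in DHX9-837 (log2 fold -0.73, SE 0.18, adjusted p = 0.027). Tlr3, the endosomal double-stranded RNA receptor gene, fell by 0.38 (SE 0.07, adjusted p = 0.00797) and Oasl2 by 0.41 (adjusted p = 0.0169). The synthetase gene Oas2 (-0.46, adjusted p = 0.0491) and the MDA5 gene Ifih1 (-0.29, adjusted p = 0.0316) complete the 5 of 9 sensors that fell; these last genes were named after their values were seen. Among effector genes 0 of 17 fell (4 without control replicate 2 and 2 without DHX9-837 replicate 3), and Ifitm3 (0.36) and Ly6e (0.25) rose. Of the 32 interferon response genes 6 fell and 2 rose, with a median of -0.15. The count of falls moved with single control arrays: it was 2 without control replicate 1, 12 without replicate 2 and 2 without replicate 3. Among the sensors it was 1 without control replicate 1 or 3, 3 without DHX9-837 replicate 1 or 2 or DHX9-1271 replicate 3, and 7 without control replicate 2. The Oas2 call was lost without any one array other than control replicate 2, and the Ifih1 call without control replicate 1 or 3, any one DHX9-837 replicate or DHX9-1271 replicate 3. The regulator gene Irf1 fell by 0.53 (adjusted p = 0.00243), while Irf7 had a log2 fold of 0.11 (adjusted p = 0.478).

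Genes of the MHC class I pathway were lower in DHX9-837. The peptide loading genes Tapbp (-0.55, SE 0.053, adjusted p = 0.000414) and Tap2 (-0.55, adjusted p = 0.000928), the class I genes H2-K1 (-0.41) and H2-D1 (-0.38) and the immunoproteasome gene Psmb8 (-0.60) fell, which is 5 of 9 with a median of -0.38. H2-K1 was at 11.02, 10.72 and 10.85 in the controls and 10.45, 10.41 and 10.51 in DHX9-837. H2 class I genes are close copies, so their single values are uncertain. Of 10 interferon-gamma GTPase genes 2 fell, among them Gbp2 (-0.74, adjusted p = 0.0101), or 1 without any one array other than control replicate 2 or DHX9-837 replicate 3. Of 10 class II genes 0 fell and 3 rose. The class II rises numbered 0 without control replicate 1, DHX9-837 replicate 1 or 3, or DHX9-1271 replicate 3, and 1 without control replicate 2 or 3 or DHX9-1271 replicate 1. Of 21 NF-kB pathway genes 1, Bcl3 (0.33), was called; 0 were without control replicate 1 or 3 or DHX9-837 replicate 2 or 3, and 2 without control replicate 2.

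The circadian clock list was lower on its repressor and output side. Usp2, a clock-controlled protease gene, was at 9.51, 9.20 and 9.39 in the controls and 8.13, 8.30 and 8.23 in DHX9-837 (log2 fold -1.14, SE 0.09, adjusted p = 0.000205). The repressor genes Nr1d2 (-0.93), Per3 (-0.79), Per2 (-0.78) and Cry2 (-0.56) fell and the activator gene Npas2 (0.47) rose. By role, 5 of 10 repressors and 3 of 6 output genes fell, and 3 of 6 activators rose. The rises in the whole clock list numbered 1 without control replicate 1 or 2 or any DHX9-837 replicate. The hour of tissue collection is not stated in the labels, so hour and hairpin cannot be told apart for these genes.

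Of 30 Hox genes, which record position along the gut, 7 fell and 0 rose (1 rose without control replicate 3), and 6 of the 7 lie in the Hoxb cluster. Hoxb5 was at 8.71, 8.61 and 8.74 in the controls and 8.16, 8.15 and 8.15 in DHX9-837 (log2 fold -0.53, SE 0.051, adjusted p = 0.000394). Hoxb4 (-0.56), Hoxb3 (-0.50), Hoxb8 (-0.48), Hoxb6 (-0.39) and Hoxb7 (-0.35) fell. The median of all 30 was -0.08. Among p53 targets 6 of 20 rose and 1 fell (3 without control replicate 2, and 0 without control replicate 1 or 3, DHX9-837 replicate 2 or 3 or DHX9-1271 replicate 3), led by Ccng1 (0.67, adjusted p = 0.000891), while the cell cycle inhibitor gene Cdkn1a had a log2 fold of 0.20 (adjusted p = 0.0902). Of 22 immediate early genes 1, Fosl1 (0.71), rose and 6 fell, or 3 fell without control replicate 1 and 3 without DHX9-837 replicate 1. Heat shock chaperones had 5 of 16 up and 0 down, among them the HSP90 partner gene Chordc1 (0.40) and the constitutive chaperone gene Hspa8 (0.28). In the Wnt target and crypt stem cell list 7 of 27 rose, Cd44 (0.61) among them, and 2 fell. The falls numbered 3 without DHX9-837 replicate 3, and 1 without control replicate 3, DHX9-837 replicate 1 or 2 or any one DHX9-1271 array. The rises there numbered 4 without control replicate 1, DHX9-837 replicate 3 or DHX9-1271 replicate 3.

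**Figure D4:**
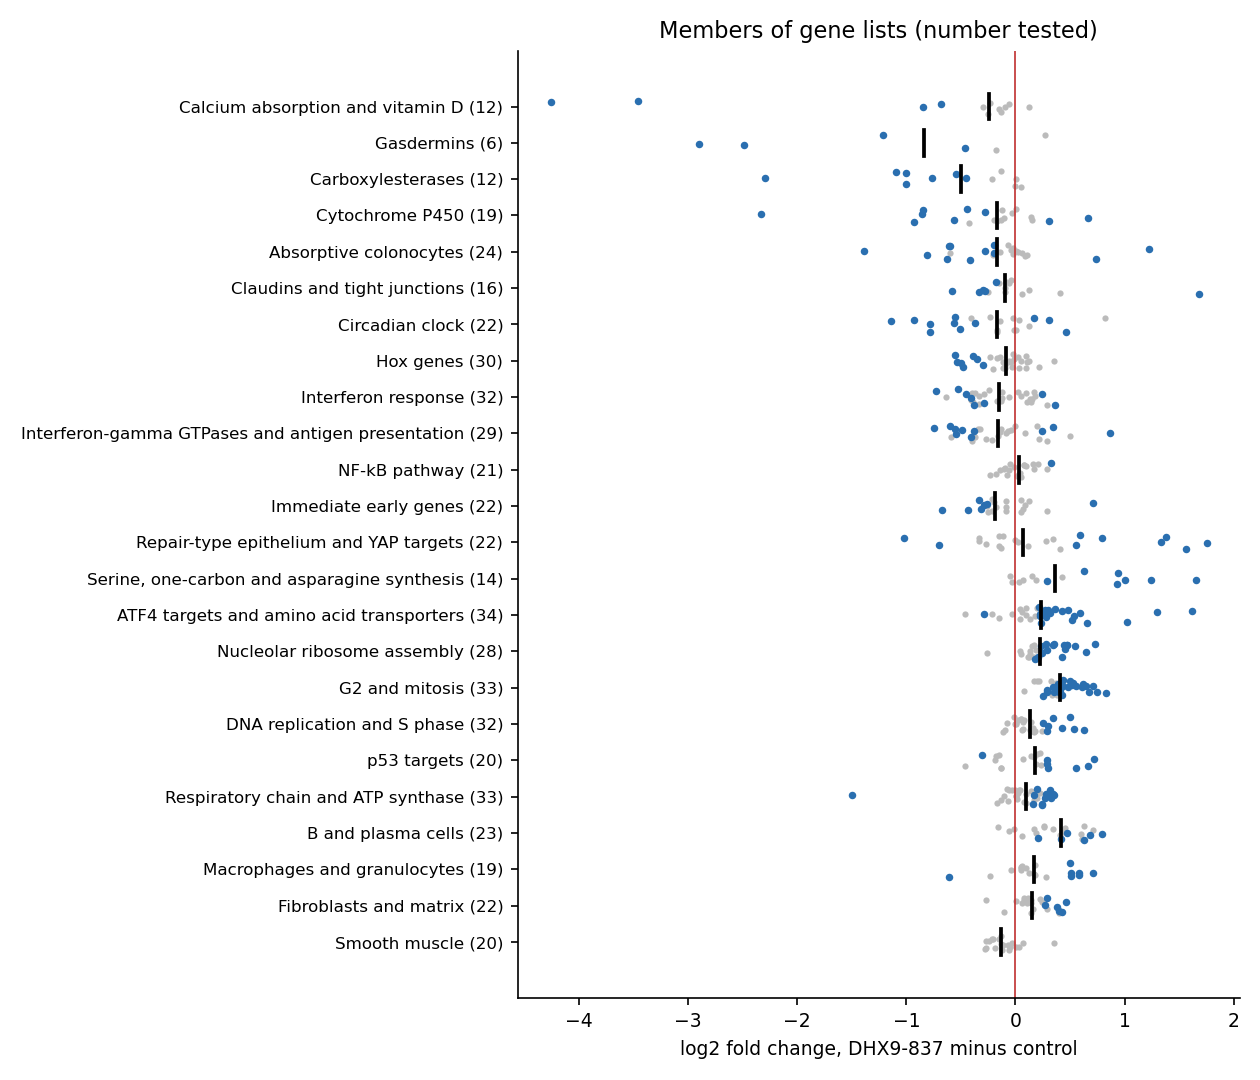
Log2 fold change of DHX9-837 against control for each tested member of 24 gene lists, with the number tested in brackets; blue members had an adjusted p under 0.05, black bars are list medians and the red line is the median of all genes tested. Mitotic, nucleolar and amino acid supply genes lie to the right and calcium, gasdermin and carboxylesterase genes to the left.

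Markers of non-epithelial cells also moved with DHX9-837. Of 23 B and plasma cell genes 6 rose and 0 fell, with a median of 0.42, and the list mean was 7.31 to 7.41 in the controls and 7.58 to 7.85 in DHX9-837. The B cell factor gene Pax5 (0.47) and the B cell receptor co-receptor gene Cd22 (0.63) were among the 6. Their count was 1 without control replicate 1 or DHX9-837 replicate 1, 2 without control replicate 3, 3 without DHX9-837 replicate 3, 10 without DHX9-837 replicate 2 and 14 without DHX9-1271 replicate 2. The immunoglobulin G heavy chain genes Ighg2b (1.91, SE 0.23, adjusted p = 0.00105) and Ighg2c (1.84, adjusted p = 0.0108) were among the largest rises and are close copies of each other. Macrophage and granulocyte genes had 6 of 19 up and 1 down (2 without control replicate 1) with a median of 0.17, led by the growth factor receptor gene Csf1r (0.58, adjusted p = 0.000352). Their list mean was 6.97 to 7.03 in the controls and 7.17 to 7.25 in DHX9-837. Fibroblast genes had 6 of 22 up (median 0.15, list mean 8.55 to 8.76 and 8.80 to 8.87). Endothelial genes had 5 of 19 up (median 0.09, list mean 7.08 to 7.11 and 7.19 to 7.24); that count was 2 without control replicate 1 or DHX9-837 replicate 1 or 2 and 3 without DHX9-837 replicate 3 or DHX9-1271 replicate 3. With DHX9-1271 against control, medians were 0.39 for the B and plasma cell list and 0.09 for the macrophage and granulocyte list. Those of the fibroblast and endothelial lists were 0.26 and 0.15. In each of these lists 0 members differed between the hairpins. Smooth muscle (20 genes), enteric neurons and glia (13), mast cells (6) and squamous epithelium (6) had 0 called. The part of these cells in the results above was not tested.

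The same genes were then set beside the hairpin DHX9-1271, which lowered Dhx9 to a similar level against the same 3 control arrays. Since both comparisons share the controls, their values are given side by side and the difference was tested between the DHX9-837 and DHX9-1271 arrays. By that test 117 genes were higher with DHX9-837 (0.696%) and 203 lower (1.21%), or 1.9% in either direction. These counts rested on few arrays: they fell to 9 and 19 without DHX9-1271 replicate 3, 18 and 37 without its replicate 1, 33 and 38 without its replicate 2, 25 and 33 without DHX9-837 replicate 1, 36 and 85 without its replicate 2 and 39 and 95 without its replicate 3. Without control replicate 3, which changes only the estimate of spread, they were 74 and 128. With the small intestine covariate, chosen after seeing the data, they were 38 and 58.

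Of the 40 largest changes named for DHX9-837, 22 differed between the hairpins, 8 of 20 rises and 14 of 20 falls. The 40 were chosen for their size in DHX9-837, so a larger value there than in DHX9-1271 is partly set by the choice. Slc37a2 was at 11.86, 11.85 and 11.85 in DHX9-1271 (log2 fold -0.32 against control), and the difference between the hairpins was -1.07 (SE 0.079, 95% interval -1.25 to -0.89, adjusted p = 0.00194). Mettl7a1, a methyltransferase-like gene, was at 10.12, 10.15 and 10.11 in DHX9-837, 11.18, 11.12 and 11.14 in DHX9-1271 and 11.49, 11.17 and 11.42 in the controls. Its difference between hairpins was -1.02 (adjusted p = 0.0019). Plet1 was at 7.42, 8.01 and 7.73 in DHX9-1271, so DHX9-837 was 1.21 higher (95% interval 0.89 to 1.54, adjusted p = 0.00908). Guca2b was at 9.97, 10.07 and 9.99 in DHX9-1271, close to its controls, and DHX9-837 was 1.04 higher (adjusted p = 0.0312).

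Other large changes were not called different between the hairpins. Ndufb2 had log2 folds of -1.50 with DHX9-837 and -1.37 with DHX9-1271 (difference -0.13, 95% interval -0.28 to 0.02, adjusted p = 0.419). Ces2a had -2.30 and -2.0 (difference -0.30, 95% interval -0.60 to 0.01, adjusted p = 0.359), and Asns had 1.65 and 1.21 (difference 0.45, 95% interval 0.16 to 0.73, adjusted p = 0.13). Of the 33 mitotic genes 0 differed in either direction, with list medians of 0.41 and 0.43. Of the amino acid supply genes, Shmt2 (difference 0.52, adjusted p = 0.00535), Got1 (0.40), Slc7a11 (1.04), Slc1a4 (0.54), Slc7a5 (0.43) and Slc3a2 (0.34, adjusted p = 0.0106) were higher with DHX9-837. The nucleolar genes Nop2 (0.40, adjusted p = 0.0155), Nop56 (0.41), Npm1 (0.41, named after its values were seen) and Mybbp1a (0.28) were higher too.

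Some genes and lists had opposite signs against control under the hairpins. The interferon response list had a median of -0.15 with DHX9-837 and 0.18 with DHX9-1271, and 3 of its 32 members were lower with DHX9-837 and 0 higher. These were Tlr3 (difference -0.40, adjusted p = 0.0304), Oasl2 (-0.52, adjusted p = 0.0298) and Oas2 (-0.65, adjusted p = 0.0486). Against control, the log2 folds with DHX9-1271 were only 0.02 for Tlr3 and 0.11 for Oasl2. Car3, the carbonic anhydrase gene of fat and muscle, was at 9.34, 9.76 and 9.56 in DHX9-837, 8.12, 7.58 and 7.87 in DHX9-1271 and 8.43, 9.31 and 8.87 in the controls. Its difference of 1.70 (SE 0.22, adjusted p = 0.0122) was the largest among named genes that were higher with DHX9-837 than with DHX9-1271, and it was not called against control (0.69, adjusted p = 0.0687). The adipocyte genes Retn (difference 1.04) and Fabp4 (0.88) went with it. Of 16 adipocyte genes 4 were higher with DHX9-837 than with DHX9-1271 and 0 lower. The call of the Car3 difference was lost without DHX9-1271 replicate 3. That of Fabp4 was lost without any one array other than control replicate 1 or 2. The adipocyte list mean lay at 7.73 to 8.0 in the controls, at 8.03 to 8.14 for DHX9-837 and at 7.69 to 7.80 for DHX9-1271, and the part of fat in these differences was not tested. Ly6g6c was at 9.97, 10.47 and 9.87 in DHX9-837, 11.59, 10.96 and 11.40 in DHX9-1271 and 10.50, 10.35 and 10.45 in the controls (difference -1.21, adjusted p = 0.0196). Per2, by contrast, fell with both hairpins, with log2 folds of -0.78 for DHX9-837 and -1.27 for DHX9-1271, and was 0.49 higher with DHX9-837 than with DHX9-1271 (adjusted p = 0.0196).

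**Figure D5:**
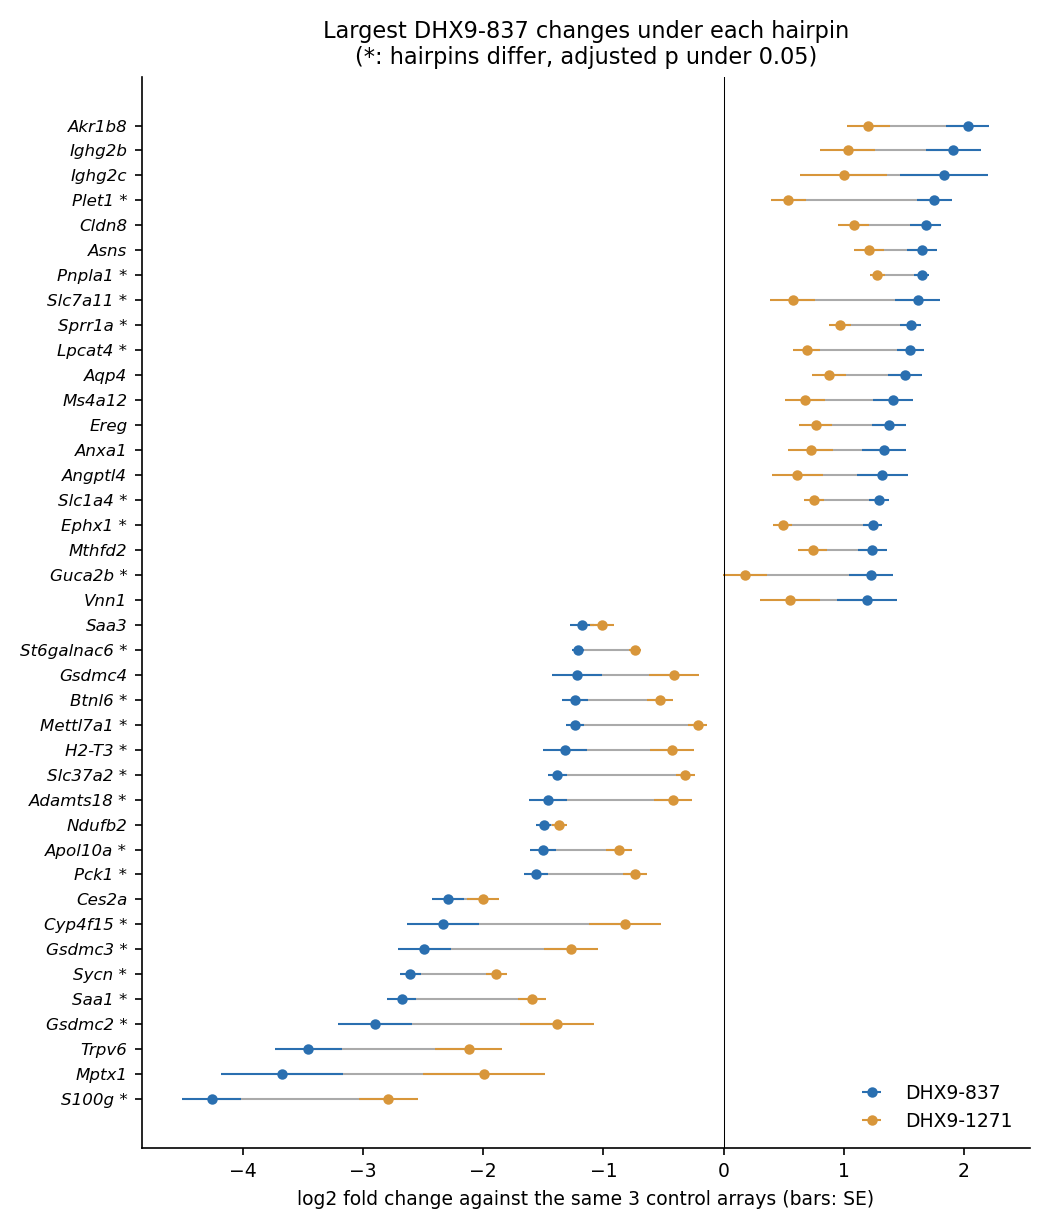
Log2 fold change with SE of the 40 largest DHX9-837 changes, for DHX9-837 (blue) and DHX9-1271 (orange) against the same 3 control arrays; an asterisk marks the 22 genes whose levels differed between the hairpins. The points are far apart for Slc37a2 (-1.38 and -0.32) and close for Ndufb2 (-1.50 and -1.37).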

How the data were processed

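Large intestine RNA of 9 samples, 3 per hairpin by their titles, was hybridised to Affymetrix Mouse Gene 2.0 ST arrays. The deposited log2 levels come from RMA, which the submitters' processing notes list with oligo 1.30.0 and R 3.1.1. RMA normalizes by quantiles, which hides a shift of most transcripts, and its median polish can leave ties, found here for 45.3% of the genes tested. The files' genome build and probe set definition: not given in the sources used here. Array number limits the precision.

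Of 24973 probe sets, the platform table gave 1 symbol for 24015, several for 0 and none for 958. The brightest probe set of each of 24011 symbols was kept, and 7203 genes under the 30th percentile of mean level (5.28) were left out. Genes were tested with limma 3.58.1 (R 4.3.3), with group means over all 9 arrays, 6 residual and 2.84 prior degrees of freedom, two-sided p-values and Benjamini-Hochberg adjustment over 16808 genes. The method was run on simulated data with independent normal noise, which lack the ties and uneven arrays of these data. That run cannot show whether calls made here hold. The 51 gene lists held 1117 genes, of which 1039 were on the array and 950 were tested. The comparison, the lists and their members were chosen with earlier results of these data known.

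The text names Dhx9, the called genes with the 20 largest rises and the 20 largest falls against control (and 10 each way between hairpins), provided no array overlapped the reference group, and up to 6 called and 4 other members of each list. Clone names, predicted genes, vomeronasal and olfactory receptors, segments of antigen receptors and small RNAs were only counted; exceptions are marked where they occur. Replicate numbers are taken not to pair samples: deviations of same-numbered control and DHX9-837 arrays correlated at 0.054, -0.366 and 0.256. Alternatives covered the level filter, probe set choice, centring, cyclic loess, moderation with trend or robustly, array weights, the 6 arrays alone, a replicate block, a 1.5-fold limit and each array left out. Leaving out tied genes and a small intestine covariate were added after the data were seen. Promoter and microRNA sequences are from RefSeq tables (GRCm38.p6). Figures used matplotlib 3.10.9 in Python 3.11.15.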

Additional observations from a re-analysis of the deposited data

Results flagged for a closer look

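For 65 genes that the naming rule selects, the DHX9-837 and DHX9-1271 arrays differed by limma with Benjamini-Hochberg adjustment over all genes. That marks them for a closer look. Genes named outside the rule, such as Oas2, Npm1, Btnl1 and Btnl4, are not in this count or in the classes below. Values are DHX9-837 minus DHX9-1271 on the log2 scale. Effects against the shared controls had opposite signs, with DHX9-837 higher, for Akr1c18 (0.863), Ambp (0.856), Car3 (1.7), Fabp4 (0.88), Ms4a10 (0.832), Retn (1.04) and Tnfrsf10b (0.36). Some of these signs rest on small values. In the same order, the DHX9-1271 effects against control were -0.208, -0.0944, -1.01, -0.179, -0.514, -0.611 and -0.0743. Effects against the shared controls had opposite signs, with DHX9-837 lower, for Akr1c14 (-0.555), Aqp8 (-0.668), Ly6g6c (-1.21), Muc4 (-0.792), Oasl2 (-0.519), Slfn4 (-1.03) and Tlr3 (-0.402). Here too most DHX9-1271 effects against control were small. In the same order they were 0.07, 0.0708, 0.88, 0.00497, 0.114, 0.258 and 0.0246. Effects had one sign and were larger in DHX9-837, with DHX9-837 higher, for Ccng1 (0.488), Chordc1 (0.388), Ephx1 (0.75), Fosl1 (0.645), Got1 (0.403), Guca2b (1.04), Hspa8 (0.272), Krt18 (0.335), Lpcat4 (0.86), Lpl (0.462) and Mybbp1a (0.276). So were Nop2 (0.4), Nop56 (0.408), Plet1 (1.21), Pnpla1 (0.37), Shmt2 (0.515), Slc1a4 (0.54), Slc3a2 (0.339), Slc7a11 (1.04), Slc7a5 (0.429) and Sprr1a (0.589). Effects had one sign and were larger in DHX9-837, with DHX9-837 lower, for Adamts18 (-1.04), Apol10a (-0.637), Btnl6 (-0.706), Ces2e (-0.477), Cyp2c65 (-0.366), Cyp2d26 (-0.321), Cyp3a13 (-0.512), Cyp4f15 (-1.51), F11r (-0.466), Gsdmc2 (-1.52) and Gsdmc3 (-1.22). So were H2-D1 (-0.339), H2-T3 (-0.89), Hoxb6 (-0.271), Klf4 (-0.323), Mettl7a1 (-1.02), Nlrp6 (-0.33), Pck1 (-0.819), Pigr (-0.223), S100g (-1.47), Saa1 (-1.09) and Slc20a1 (-0.478). So were Slc26a3 (-0.355), Slc37a2 (-1.07), Slc8a1 (-0.438), Slc9a2 (-0.369), St6galnac6 (-0.47), Sycn (-0.717) and Usp2 (-0.497). Effects had one sign and were smaller in DHX9-837, with DHX9-837 higher, for Per2 (0.486). The counts given with the hairpin comparison show how these calls move when 1 array is left out.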

How the results depend on the processing

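The 40 largest DHX9-837 changes kept their call and direction in every alternative that tested them, except the 1.5-fold limit. Under that limit 28 kept it. A gene that an alternative left out, for its level or for tied values, was not counted as lost there. Of the 223 genes that the naming rule selects against control, 46 lost their call in at least 1 fit without an array. In at least 1 other alternative 40 did. Of 26 called genes named outside that rule, 9 and 8 did. Of the 20 genes named between the hairpins, 17 lost their call in at least 1 fit without an array. Dhx9 kept its call in every alternative that tested it. Counts of genes higher and lower than in controls (1457 and 1161) were 942 and 732 with the 6 arrays alone, and why was not tested. The same counts were 24 and 28 beyond 1.5-fold, and 942 to 1333 and 775 to 1183 without 1 array. The counts between hairpins (117 and 203) were 53 and 87 with no level filter, 173 and 320 with the filter at the median gene, 180 and 218 with cyclic loess, 194 and 347 with a trend, 282 and 437 with array weights, 1 and 0 beyond 1.5-fold, 38 and 58 with the small intestine covariate, and 9 to 125 and 19 to 237 without 1 array; the cause was not tested. With 0 lower beyond 1.5-fold, limma without that limit gave 1407 lower genes at an unadjusted p under 0.05. With the replicate number as a block, which only shares a number here, 1283 genes were higher and 1001 lower than in controls and 62 and 106 between hairpins. Without tied genes the counts were 1312 and 1041, and 142 and 226. Medians of the 51 lists changed sign for 5 with centring, 2 with cyclic loess, 3 with array weights, 6 with the small intestine covariate and at most 9 without 1 array (7 without control replicate 1, 9 without DHX9-837 replicate 3); of 50 lists 2 did with the filter at the median gene and 3 without tied genes. Signal near the level filter limits Mptx1, Cyp4f15 and Slc7a11.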

Other observations

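Most butyrophilin-like genes and some nonclassical MHC class I genes were lower in DHX9-837. These families were singled out after their values were seen. Of 7 butyrophilin-like genes tested 5 fell, with a median of -0.66. Btnl1, whose product holds gamma-delta T cells in the mouse gut epithelium together with that of Btnl6, was at 10.09, 10.10 and 10.26 in the controls and 9.20, 9.10 and 9.33 in DHX9-837 (log2 fold -0.94, SE 0.075, adjusted p = 0.000219). Btnl6 fell by 1.23, Btnl2 by 0.98 and Btnl4 by 0.66, and Btnl1, Btnl4 and Btnl6 were also lower than with DHX9-1271 (differences -0.54, -0.45 and -0.71). Of 16 nonclassical MHC class I genes 5 fell, 0 rose and the median was -0.23. H2-T3, which encodes the thymus leukaemia antigen, fell by 1.32 and H2-Q2 by 1.04. Of 20 T and NK cell genes 1 rose and 0 fell (2 rose without DHX9-837 replicate 2, and 2 fell without control replicate 2 or DHX9-837 replicate 3), and the list mean was 6.64 to 6.69 in the controls and 6.44 to 6.72 in DHX9-837. These families hold close copies, so single values are uncertain.

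Some membrane mucin genes fell as well, and metal transporter genes moved in both directions. These families were also singled out after their values were seen. Of 12 mucin genes 0 rose, 8 were not called and 4 fell, with a median of -0.099: Muc16 (-0.95, adjusted p = 0.002), Muc4 (-0.79), Muc3a (-0.56) and Muc1 (-0.26), all of which encode membrane mucins. The Muc1 call was lost without any one array other than control replicate 1 or DHX9-837 replicate 1. Muc13 (-0.07, adjusted p = 0.372), also a membrane mucin gene, was not called, and the secreted mucin gene Muc2 had a log2 fold of 0.11 (adjusted p = 0.288). Of 9 magnesium transport genes 2 fell and 1 rose, the rise being lost without any one array. Trpm6, the magnesium channel gene of the colon, fell by 0.62 (adjusted p = 0.0024) and the magnesium exporter gene Cnnm4 by 0.43. Of 22 zinc and manganese transporter genes 3 fell and 2 rose, with a median of -0.0056. Rises numbered 1 without any one array other than control replicate 2 or DHX9-837 replicate 3. Across all genes tested 6.91% fell and 8.67% rose, and an excess of calls in these transporters was not tested. The zinc exporter gene Slc30a1 fell by 0.69, the manganese exporter gene Slc30a10 by 1.1 (called neither without control replicate 1 or 3 nor without DHX9-837 replicate 1 or 2) and Slc39a9 by 0.51, while the zinc importer genes Slc39a10 (0.51) and Slc39a4 (0.18) rose.

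Of 3 tested Mir192 and Mir194 genes, small RNA genes singled out after their values were seen, 2 fell and 0 rose. The array's Mir192 probe set, which reads the precursor region rather than the mature microRNA, was at 7.15, 7.11 and 7.55 in the controls and 5.86, 6.25 and 5.63 in DHX9-837 (log2 fold -1.35, SE 0.20, adjusted p = 0.00282). Mir194-1 fell by 0.48 (adjusted p = 0.0123), and Mir194-2 had a log2 fold of 0.23 (adjusted p = 0.612). Both families are enriched in gut epithelium. Their mature sequences are shown with the seed, bases 2 to 8, in capitals.
miR-192-5p, chr19:6264857-6264877, plus strand: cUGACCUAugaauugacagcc
miR-194-5p, chr1:185313325-185313346, plus strand: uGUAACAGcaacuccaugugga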
